A study of Mus musculus with 12 samples.

Results

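The chromosome 9 interval around Rora was described by the 578 array probes that lay within 20 Mb to either side of that gene and gave a signal above background in mouse lung. Rora encodes a nuclear receptor of the retinoic acid receptor-related orphan family. The members were chosen by position and signal: a probe midpoint inside chr9:49177998-89177998 of mouse build mm8, and a signal that the scanner software set well above background on 4 or more of 12 arrays. Of the 766 probes in the interval, 594 passed this filter. Probes of Rora itself, of Atm, Gclc and Sdhd, and of names starting with Cyp, Gst, Cox, Col or Adamts were left out, which removed 16. The 578 members are 578 of the 30189 probes kept on the arrays, carry 354 gene names, and comprise 369 probes proximal of Rora (lower coordinates) and 209 distal of it (higher coordinates). The interval was taken around position 69178000, the rounded place of the brightest Rora probe (chr9:69177968-69178027). Sides and distances are counted from there, not from the ends of the gene.

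Lung RNA of 12 mice was hybridised to single-colour Agilent arrays, 1 mouse per array. The mice formed 3 groups of 4: wild-type (WT) mice kept in room air, WT mice given cigarette smoke, and Rora mutants given the same smoke. Per the labels all were male mice on the C57Bl/6 background, aged 12 weeks, and whole lung was taken. Smoke was given on 5 days a week for 4 months, which is longer than the stated age. The labels name neither the Rora allele nor how the mutant line was made, and no mutant group in room air was analysed here, so an effect of genotype cannot be told apart from an effect of genotype that needs smoke. In whole lung, fewer cells of a type and less RNA per cell cannot be told apart. The labels call the 4 mice of a group biological replicates.

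As background, a mutation kept by breeding carries with it a stretch of the chromosome on which it arose. Genes in such a stretch can differ between the mutant and the control strain in sequence as well as in the mutation, and a base difference under an array probe can change its signal without a change in the amount of RNA. ROR proteins bind as monomers to the ROR response element, an AGGTCA half-site after a stretch rich in A and T. The interval also holds the dilute locus (Myo5a) and the short ear locus (Bmp5), mouse coat and skeletal loci known for their close linkage. Whether the mutant and wild-type mice differ in sequence in this interval was not tested.

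Promoters of 6 genes are shown because their probes changed together with a neighbouring gene or with a large size in the mutants: Mapk6, Leo1 and Tmod2 from a run of falling probes, Ooep from a falling pair, Bckdhb with both probes rising, and Cep162 with 3 of 5 probes falling. They are the 300 bases from 250 before to 50 after the start in RefSeq (build GRCm38.p6, which is not the mm8 build of the probe positions), read 5′ to 3′ on the strand named, with AGGTCA on either strand in capitals. Where the table held several starts, the one farthest upstream is printed.
Mapk6 (chr9:75409967-75410266, - strand): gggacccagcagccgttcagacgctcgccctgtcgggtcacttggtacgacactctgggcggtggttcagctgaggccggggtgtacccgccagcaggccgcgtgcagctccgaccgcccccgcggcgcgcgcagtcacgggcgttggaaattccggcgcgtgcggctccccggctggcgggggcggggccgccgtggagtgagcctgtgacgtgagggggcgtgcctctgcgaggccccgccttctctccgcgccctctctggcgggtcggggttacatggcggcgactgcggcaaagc
Leo1 (chr9:75441274-75441573, + strand): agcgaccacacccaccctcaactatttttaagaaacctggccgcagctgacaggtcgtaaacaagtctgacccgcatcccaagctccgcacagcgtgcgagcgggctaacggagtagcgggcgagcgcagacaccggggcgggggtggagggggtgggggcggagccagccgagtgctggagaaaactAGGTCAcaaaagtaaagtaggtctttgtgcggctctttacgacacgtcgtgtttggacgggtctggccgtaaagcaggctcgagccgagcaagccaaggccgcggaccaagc
Tmod2 (chr9:75611276-75611575, - strand): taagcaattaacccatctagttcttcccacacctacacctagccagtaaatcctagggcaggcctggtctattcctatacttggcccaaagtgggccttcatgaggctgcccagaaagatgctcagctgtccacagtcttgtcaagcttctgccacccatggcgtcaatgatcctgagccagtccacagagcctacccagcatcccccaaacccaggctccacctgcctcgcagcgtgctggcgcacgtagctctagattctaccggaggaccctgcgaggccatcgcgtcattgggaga
Ooep (chr9:78378539-78378838, - strand): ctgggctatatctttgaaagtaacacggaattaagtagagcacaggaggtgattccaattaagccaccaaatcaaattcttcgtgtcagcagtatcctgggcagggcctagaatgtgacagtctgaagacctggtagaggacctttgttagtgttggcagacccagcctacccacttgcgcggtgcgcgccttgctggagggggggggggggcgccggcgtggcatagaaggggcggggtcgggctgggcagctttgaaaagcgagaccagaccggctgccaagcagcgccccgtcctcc
Bckdhb (chr9:83924887-83925186, + strand): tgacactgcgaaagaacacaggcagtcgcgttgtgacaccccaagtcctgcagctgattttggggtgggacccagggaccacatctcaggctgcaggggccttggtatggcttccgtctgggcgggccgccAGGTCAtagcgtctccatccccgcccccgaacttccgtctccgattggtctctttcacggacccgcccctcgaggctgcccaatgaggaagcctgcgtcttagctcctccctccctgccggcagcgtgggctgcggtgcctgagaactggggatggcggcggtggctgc
Cep162 (chr9:87255483-87255782, - strand): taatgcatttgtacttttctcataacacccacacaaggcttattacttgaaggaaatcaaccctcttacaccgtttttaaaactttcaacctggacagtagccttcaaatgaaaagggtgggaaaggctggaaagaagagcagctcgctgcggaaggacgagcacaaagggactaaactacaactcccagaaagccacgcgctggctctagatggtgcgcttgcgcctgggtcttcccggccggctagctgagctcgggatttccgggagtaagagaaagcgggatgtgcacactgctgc
The half-site occurred once in the printed windows of Leo1 and Bckdhb and in none of the other 4. Of 32851 promoters of this length in the table, 16.3% held AGGTCA on either strand, against 31 of the 309 promoters found for 253 of the 354 member names. The ROR response element was searched only as a fixed spelling, the half-site with A or T at set places before it. This spelling was found in 2.17% of all promoters and in 4 of the 309. Other forms of the element were not searched. Among the 67 promoters of genes with a changed member, 7 held the half-site and 0 the fixed spelling. That says only that these letters, in this spelling, are not in these windows. The Leo1 half-site follows the bases aaaact, a stretch rich in A and T that the searched spelling does not match. The share of G and C was 73.7% for Mapk6, 61.3% for Leo1, 56.3% for Tmod2, 58.3% for Ooep, 65.0% for Bckdhb and 50.7% for Cep162.

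Levels are given as log2 of the array's processed signal over its 75th percentile, and a change as the difference of group means on that scale with the standard error (SE) of the fit. In a limma fit across all 30189 kept probes, those whose p after Benjamini-Hochberg adjustment was under 0.05 are said to have passed. The brightest Rora probe, no member itself, checked the labels. It read 1.16, 1.25, 1.16 and 1.18 in WT room air, 1.24, 1.31, 1.30 and 1.24 in WT smoke, and -0.86, -0.83, -1.04 and -0.94 in the mutants. The mutants were lower by 4.57-fold (log2 -2.19, SE 0.06, limma adjusted p = 1.04e-09; two-sided exact permutation p = 0.0286, the smallest that 4 against 4 allows). The other 2 Rora probes changed by -2.32 and -2.33.

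Between 70.1% and 74.8% of spots were well above background per array. All 7 lung markers (Sftpc, Sftpb, Sftpa1, Scgb1a1, Foxj1, Ager, Pecam1) were above background on all 12 arrays. Markers of other tissues differed between the smoke groups: the summed linear level of the fat markers Adipoq and Plin1 was 0.587 to 2.08 in WT smoke and 2.17 to 3.44 in the mutants, that of the heart markers Myh6 and Nppa 9.93 to 14.1 and 14.4 to 21.4, that of liver (Alb and Ttr, the latter above background on no array) 0.0396 to 0.0489 and 0.0499 to 0.0731, and the thyroid marker Tg 0.106 to 0.124 and 0.169 to 0.214. WT room air lay at 1.22 to 2.07 for fat, below the mutants, and overlapped them for heart (12.6 to 19.3), liver (0.0486 to 0.0592) and thyroid (0.136 to 0.180). The thymus markers Dntt and Rag1 summed to 0.0630 to 0.0688 and 0.0436 to 0.108, with overlap, and reached 2.42 in WT room air, where 2 arrays carried Rag1 above background. Xist, the RNA of the silent X chromosome, was at 4.06 to 4.22 in WT room air and at most -3.08 on the smoke arrays, although all mice were labelled male. Ddx3y, a Y-linked gene, was well above background on no room air array and on all smoke arrays. The part of these differences in the results below was not tested, and signs of sex coincided with exposure, not with genotype.

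Across the interval 78 of 578 members (13.5%) differed between mutant and WT smoke, against 5.80% of all kept probes. Of these, 34 were higher, where 2.16% of all kept probes were higher, and 44 were lower, where 3.64% were lower. The median change of the members was 0.00 and that of all kept probes 0.00, while the median absolute change was 0.132 in the interval and 0.105 over all kept probes. The differences lay mostly on the distal side of Rora. There, 62 of 209 members (29.7%) passed, 29 higher and 33 lower, and the median absolute change was 0.217. On the proximal side 16 of 369 (4.34%) passed, 5 higher and 11 lower, and the median absolute change was 0.108, near that of all kept probes. The same probes gave 23 of 578 (3.98%) in WT smoke against WT room air, 13 higher and 10 lower, beside 4.09% of all kept probes (2.05% higher, 2.03% lower). In that comparison the distal share was 4.31% and the proximal share 3.79%. Both comparisons use the same 4 WT smoke arrays.

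**Figure D1:**
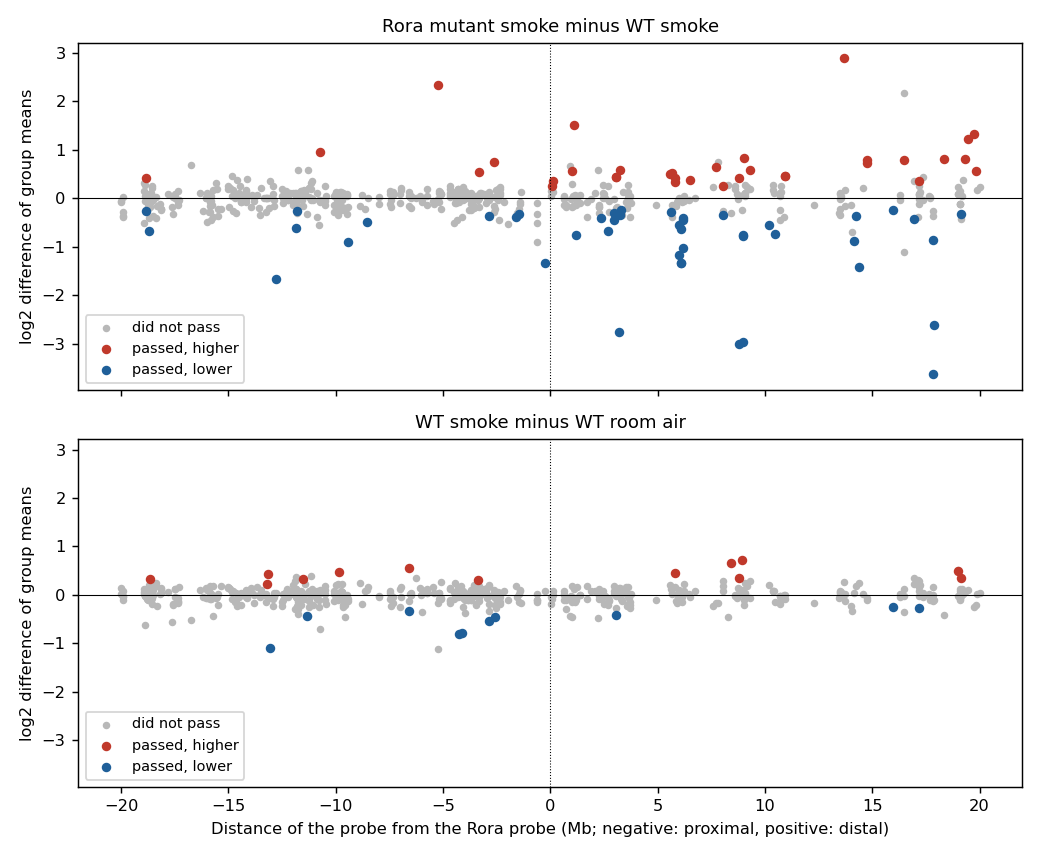
Change of each of the 578 members against its distance from the Rora probe in Mb (negative: proximal, positive: distal), as log2 difference of group means, for mutant smoke minus WT smoke (top) and WT smoke minus WT room air (bottom). Red and blue points passed at a limma adjusted p under 0.05; in the top panel 62 of them lie to the right of 0 and 16 to the left.

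By distance, the share that passed for genotype was 6 of 40 (15%) at 0 to 2.5 Mb distal of Rora, 9 of 35 (25.7%) at 2.5 to 5 Mb, 24 of 55 (43.6%) at 5 to 10 Mb, 10 of 34 (29.4%) at 10 to 15 Mb and 13 of 45 (28.9%) at 15 to 20 Mb. The share was thus not highest next to the gene. The median absolute change in these bins was 0.143, 0.140, 0.278, 0.244 and 0.240. On the proximal side it was 3 of 21 (14.3%) within 2.5 Mb, then 3 of 74 (4.05%), 3 of 72 (4.17%), 4 of 118 (3.39%) and 3 of 84 (3.57%) in the bins out to 20 Mb. In the next 5 Mb outside the interval on the distal side, 5 of 23 probes (21.7%) passed. The 23 probes carried 13 gene names and the 5 that passed only 3, and all 5 were lower. On the proximal side the next 5 Mb held 6 of 91 (6.59%). Over the whole rest of chromosome 9, 43 of 550 probes (7.82%) passed proximal of the interval and 43 of 573 (7.50%) distal of it. On the other autosomes the share ran from 3.93% to 7.20%, and the median absolute change from 0.0951 to 0.116. For smoke, the bins of the interval ran from 0 of 40 to 4 of 45 (8.89%).

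**Figure D2:**
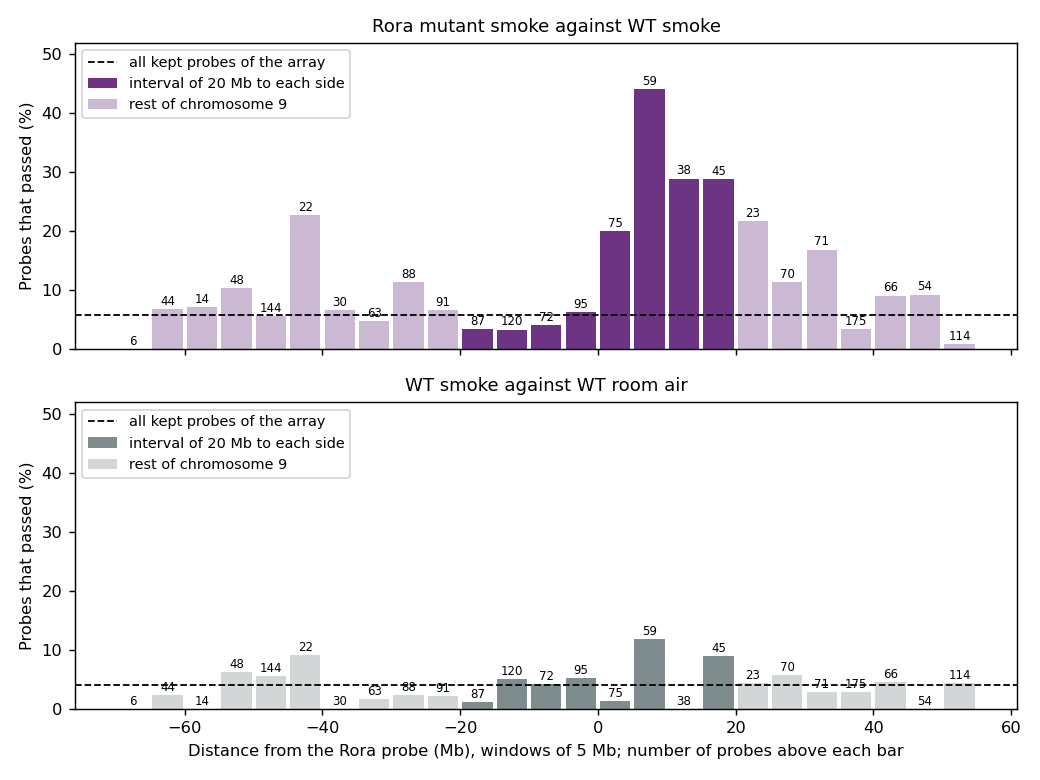
Share of kept probes that passed, in percent, in windows of 5 Mb along chromosome 9 by distance from the Rora probe, with Rora probes left out and the other names kept; the number of probes stands above each bar and the dashed line marks the share over all kept probes. For genotype (top) the 4 windows distal of Rora hold 15 of 75, 26 of 59, 11 of 38 and 13 of 45 probes that passed; for smoke (bottom) no window passes 11.9%.

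The mutant arrays stood apart from WT smoke on many of these probes. In 121 members (20.9%) the 4 mutant arrays did not overlap the 4 WT smoke arrays, against 13.4% of all kept probes, and on the distal side this was 76 of 209 (36.4%). In 77 members (13.3%) the 4 mutant arrays lay above or below all 8 wild-type arrays of both exposures, against 7.04% of all kept probes; 56 of these were distal (26.8% of distal members) and 21 proximal (5.69%). Among probes that passed with a change over 1 log2 unit, 17 were members (14 of them distal, 5 higher and 12 lower), against 0.450% of all kept probes. Of the 78 members that passed, 77 had the same sign within each of the 3 slides, and this held for all 62 on the distal side; over all kept probes that passed it held for 1745 of 1752 (99.6%), a similar share. Members that passed were dimmer than those that did not, with a median level of -2.07 against -1.27, and 85.9% against 93.4% of them were above background on all 12 arrays. Whether probes that passed elsewhere on the arrays were dimmer too was not tested. The distal and proximal members as wholes had similar median levels, -1.40 and -1.34, and similar median SDs within groups, 0.130 and 0.126.

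The counts depended on the background correction. With normexp on the raw spot means, 2 members passed (both distal and higher), 26 of all kept probes passed, the median SE of the members was 0.159 in place of 0.0885, and 61 of the 78 kept their sign; an unadjusted p under 0.05 was found for 16.3% of distal members, 5.96% of proximal members and 5.94% of all kept probes. In the other 18 alternatives the distal share stayed between 22.0% and 31.1%, the proximal share between 1.63% and 8.40% and the share of all tested probes between 2.29% and 7.50%. Leaving out WT smoke replicate 1 or 3 reduced the lower members from 44 to 26 and 29. The proximal count of 16 became 26 without mutant replicate 2, and 7, 6 and 7 without mutant replicate 4, WT smoke replicate 1 and WT smoke replicate 3.

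**Figure D3:**
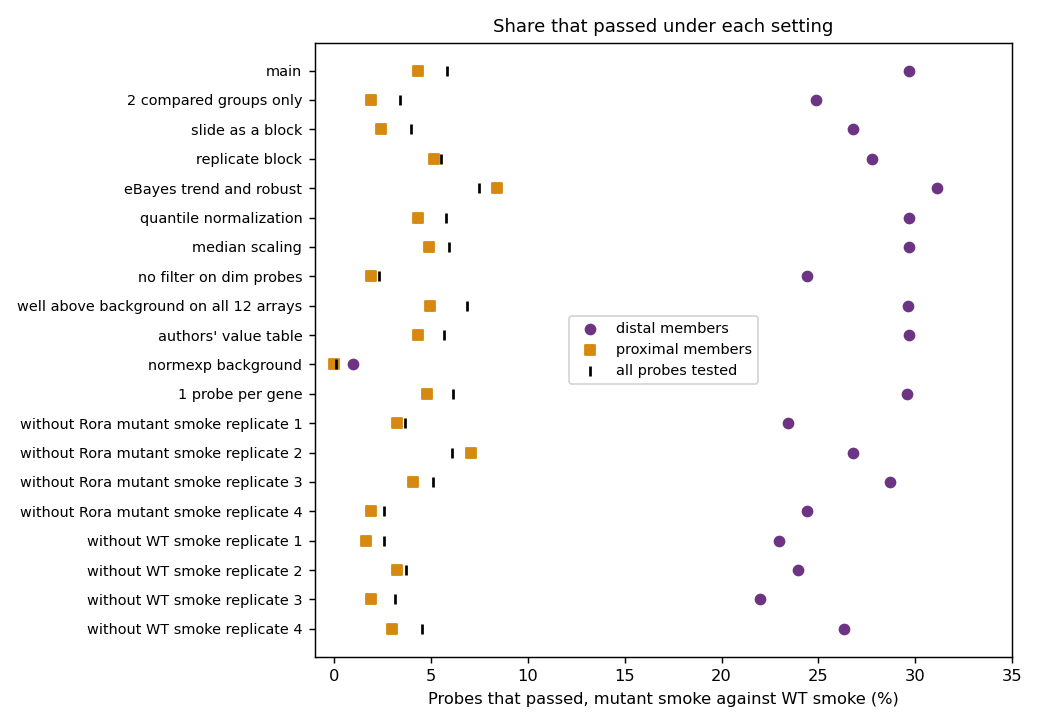
Share of distal members, proximal members and all tested probes that passed for mutant smoke against WT smoke, in percent, under the main setting and each alternative. Distal members lie at 22.0% or more in every setting but the normexp background correction, where 0.957% passed. With no filter on dim probes, all tested probes include dim ones while the members do not.

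The named genes next to Rora on the proximal side mostly did not pass. With the brightest probe of each gene, Vps13c (1.41 Mb away) differed by -0.08, while 1 of its 4 dimmer probes fell by 0.33, C2cd4a (1.55 Mb) by -0.31, Tln2 (2.16 Mb) by -0.07, Tpm1 (2.36 Mb), an actin-binding tropomyosin, by 0.06 and Lactb (2.41 Mb) by -0.44. C2cd4b, at 1.62 Mb, was the exception at -0.38 (SE 0.09, limma adjusted p = 0.0316), a call that was lost without any of mutant replicates 2, 3 and 4 and WT smoke replicates 1, 3 and 4. Closer to the Rora probe lay E130120C16Rik, a transcript known by its clone name, at 0.25 Mb (chr9:68927179-68927238). Its probe read -2.01, -2.08, -2.08 and -2.15 in WT room air, -2.25, -1.81, -1.97 and -1.94 in WT smoke, and -3.08, -3.19, -3.43 and -3.57 in the mutants. All 4 mutant arrays thus lay below all 8 wild-type arrays, a 2.51-fold lower signal (log2 -1.33, SE 0.11, limma adjusted p = 9.76e-05). E130120C16Rik, like Sltm, Zfp280d, Lrrc1, Cep162 and the neighbours of Mapk6 and Tmod2 below, was named after its values were seen. Whether the E130120C16Rik probe lies within the Rora gene itself was not analysed, since no mm8 gene models were used.

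On the distal side the nearest genes were Ice2 (0.05 Mb), Anxa2 (0.11 Mb), Bnip2 (0.62 Mb), Gtf2a2 (0.64 Mb), Fam81a (0.71 Mb) and Myo1e (0.99 Mb), and none of their brightest probes passed (0.06, 0.14, -0.14, 0.04, -0.18 and -0.17). A dimmer probe passed in 2 of them. That of Anxa2, a calcium-dependent membrane-binding protein, was at 3.43, 3.27, 3.51 and 3.46 in WT smoke and 3.82, 3.80, 3.73 and 3.78 in the mutants (log2 0.37, SE 0.06, limma adjusted p = 0.00769). That of Myo1e, a class I myosin, rose by 0.57 (SE 0.06, limma adjusted p = 0.000318).

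A larger change appeared 1.1 Mb distal of Rora. One probe of Rnf111 (chr9:70302104-70302163), which encodes a ubiquitin ligase that promotes TGF-beta signalling, read -0.39, -0.27, -0.52 and -0.53 in WT room air and -0.25, -0.33, -0.22 and -0.41 in WT smoke. The mutant arrays read 1.14, 1.41, 1.08 and 1.19, far above all wild-type arrays. The rise was 2.85-fold (log2 1.51, SE 0.08, limma adjusted p = 3.80e-06). The gene's brighter probe, at chr9:70225313-70225372, differed by 0.05 (SE 0.09, limma adjusted p = 0.787). Sltm, a nuclear RNA-binding protein and the next gene, had a similar split in the other direction. Its probe at chr9:70361137-70371323 read 1.13, 1.05, 0.97 and 0.94 in WT smoke and 0.23, 0.26, 0.37 and 0.16 in the mutants (log2 -0.76, SE 0.06, limma adjusted p = 7.33e-05), while its other 2 probes differed by -0.14 and 0.05.

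Between 2.5 and 5 Mb the changes were of both signs. Mns1, a protein of sperm flagella and meiosis, rose by 0.44 (SE 0.09, limma adjusted p = 0.0145). The mutants were at 1.52, 1.39, 1.45 and 1.41, above WT smoke at 1.20, 0.84, 0.87 and 1.10 but close to the WT room air arrays at 1.41 ± 0.10 (SD, n = 4), and Mns1 fell by 0.40 from WT room air to WT smoke (limma adjusted p = 0.0229). Rfx7, an RFX family transcription factor, had 3 members, and all passed. Its brightest probe rose from -1.14 ± 0.07 (SD, n = 4) to -0.56 ± 0.11 (log2 0.58, SE 0.07, limma adjusted p = 0.00110). A dimmer probe fell by 0.35 (limma adjusted p = 0.0233), and the dimmest, measurable on 3 of 4 WT smoke arrays and on no mutant array, was at least 2.04-fold lower. This bound sets the bright group's mean against the lowest signal well above background on the dim arrays. Zfp280d, a zinc finger gene, fell on 2 of its 3 probes (by 0.44 and 0.30), and its last differed by -0.01. Nedd4, a ubiquitin ligase, had a brightest probe that differed by -0.34 and did not pass (limma adjusted p = 0.133).

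A run of calls lay 6 Mb distal of Rora, from Mapk6 to Tmod2 (chr9:75173326-75362575). Of 12 members in these 189 kb, 8 passed, all lower, and 4 did not, with a median of -0.54 over the 12. The stretch was picked after its values were seen. Mapk6 encodes ERK3, an atypical MAP kinase. Its probe at chr9:75194656-75194715 read -1.17, -1.16, -1.26 and -1.33 in WT smoke and -2.39, -2.34, -2.59 and -2.25 in the mutants, 2.23-fold lower (log2 -1.16, SE 0.08, limma adjusted p = 2.50e-05). Another Mapk6 probe fell by 0.55 (limma adjusted p = 0.0187), and the one nearest to Rora differed by 0.01 (limma adjusted p = 0.909).

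Leo1, a subunit of the PAF1 complex that travels with RNA polymerase II, had a single member (chr9:75252134-75252193). It read -2.16 ± 0.16 (SD, n = 4) in WT room air, -2.06, -2.19, -2.23 and -2.27 in WT smoke and -3.81, -3.75, -3.30 and -3.24 in the mutants. The groups did not overlap, and the mutants were 2.53-fold lower (log2 -1.34, SE 0.13, limma adjusted p = 0.000291). Tmod3 and Tmod2, tropomodulins that cap the pointed ends of actin filaments, followed. The bright Tmod3 probe fell by 0.63 (SE 0.08, limma adjusted p = 0.00136) and its 2 dim probes differed by 0.01 and -0.07. All 3 Tmod2 probes fell, by 1.03, 0.41 and 0.45 (limma adjusted p = 0.00107, 0.0173 and 0.00371). The brightest of these was at 1.84, 2.04, 1.87 and 2.04 in WT smoke and 1.53, 1.72, 1.53 and 1.37 in the mutants. Next to this run Myo5c, Gnb5, Lysmd2 and Scg3 had members that differed by -0.07, -0.03, 0.05 and -0.05 and did not pass. In smoke against room air none of the 8 probes passed.

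Close to that run, calls of both signs were found. Both probes of Myo5a, the class V myosin of the dilute coat locus that moves melanosomes, were higher, by 0.42 (SE 0.09, limma adjusted p = 0.0214) and 0.34 (SE 0.09, limma adjusted p = 0.0434). The brighter one read -0.27, -0.29, -0.45 and -0.34 in WT smoke and -0.03, -0.01, 0.18 and 0.17 in the mutants, with no overlap; its call was lost without mutant replicate 4 or WT smoke replicate 3. The dimmer one was also higher in WT smoke than in WT room air, by 0.45 (limma adjusted p = 0.0152). Bmp5, the bone morphogenetic protein of the short ear locus, rose on its brighter probe from -0.41, -0.47, -0.42 and -0.27 to -0.12, 0.09, 0.06 and -0.07 (log2 0.38, SE 0.07, limma adjusted p = 0.0139), and differed by -0.03 on the other. Fam214a fell by 0.28 (SE 0.06, limma adjusted p = 0.0243; lost without mutant replicate 1 or 4 or WT smoke replicate 1 or 3, and with the slide as a block, limma adjusted p = 0.0560), and Mlip, a muscle protein that binds lamins, rose by 0.65 (SE 0.12, limma adjusted p = 0.0100).

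**Figure D4:**
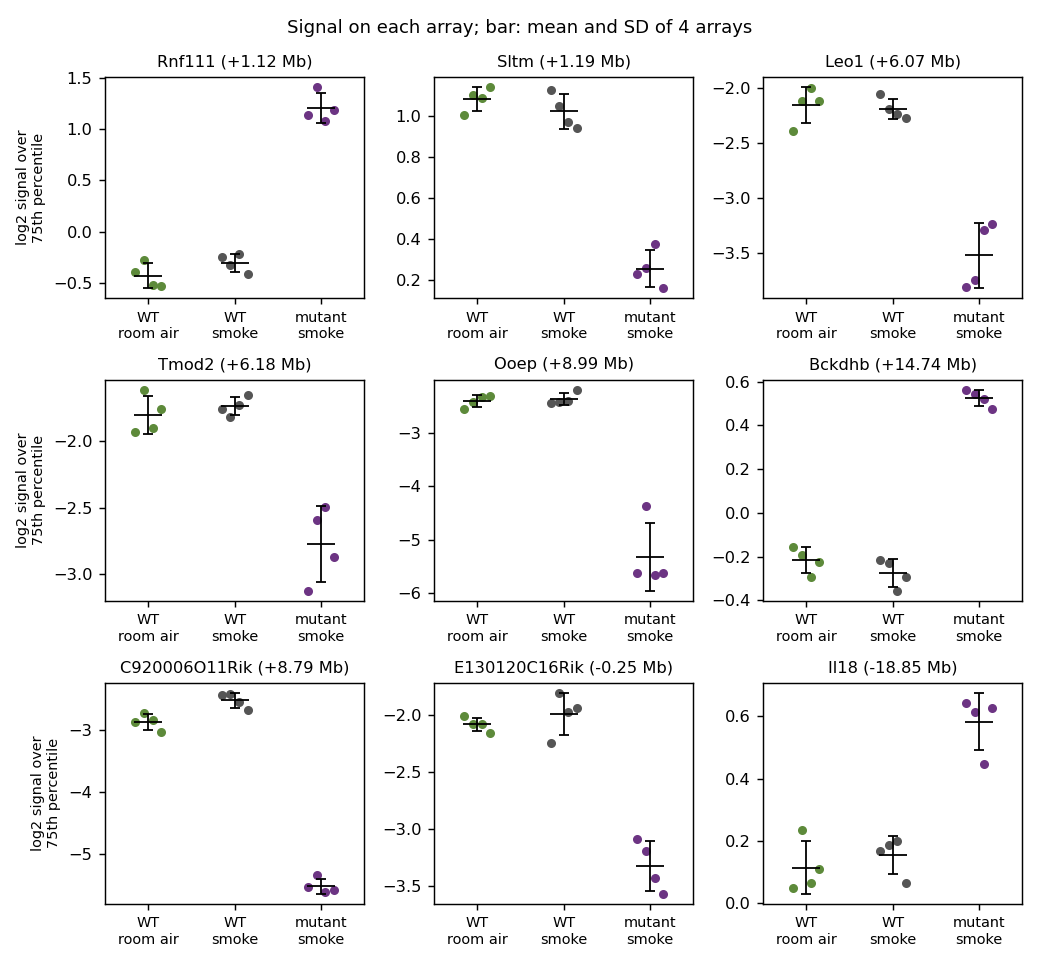
Level of 9 members on each of the 12 arrays, as log2 signal over the array's 75th percentile, with mean and SD of each group of 4; for genes with several members the probe with the largest absolute change is drawn. In each panel the 4 mutant arrays lie on one side of all 8 wild-type arrays; Leo1 fell from -2.19 to -3.52 between the group means of WT smoke and mutant smoke.

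Another group of lower signals lay near 9 Mb. Ooep, a protein of the oocyte's subcortical maternal complex, was well above background on all 12 arrays at chr9:78163707-78163766. It read -2.55, -2.42, -2.32 and -2.29 in WT room air, -2.43, -2.42, -2.39 and -2.19 in WT smoke, and -5.63, -4.37, -5.67 and -5.62 in the mutants. The mutants were 7.80-fold lower (log2 -2.96, SE 0.24, limma adjusted p = 7.00e-05), and the mutant array nearest to wild type, replicate 2, was still below all 8. Its neighbour Dppa5a, a KH domain gene of pluripotent cells, fell on both probes by 0.77 (SE 0.06) and 0.75 (SE 0.13), with limma adjusted p = 7.33e-05 and 0.00837. The transcript C920006O11Rik, named after its values were seen, read -2.44, -2.41, -2.55 and -2.67 in WT smoke and -5.54, -5.35, -5.63 and -5.59 in the mutants. This 8.06-fold difference (log2 -3.01, SE 0.09) had the smallest adjusted p among the members, 3.31e-09. From C920006O11Rik to Ooep (199.8 kb) 4 of 5 members fell and 1 did not pass. This stretch was picked after its values were seen. So was the stretch from Rnf111 to Sltm, where 1 of 8 members was higher, 1 lower and 6 did not pass. Cd109, a membrane-anchored protein that binds TGF-beta, rose by 0.58 on its brighter probe (SE 0.09, limma adjusted p = 0.00683).

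Farther out, 10 to 15 Mb from Rora, Myo6, the myosin that moves towards the minus end of actin filaments, rose on 2 of 3 probes by 0.47 and 0.46 (limma adjusted p = 0.00355 and 0.0427), and its last differed by -0.38. Filip1, which binds filamin, fell by 0.74 (SE 0.18, limma adjusted p = 0.0383), with mutant values that varied with an SD of 0.43. The calls of Filip1 and of the brightest Myo6 probe were lost without any of mutant replicates 3 and 4 and WT smoke replicates 1 to 4, and that of Myo6 also without mutant replicate 1 and with the slide as a block (limma adjusted p = 0.0705). Bckdhb, a subunit of the enzyme that breaks down branched-chain keto acids, rose on both probes. Its bright probe was at 0.03, -0.04, -0.12 and 0.10 in WT smoke and 0.83, 0.84, 0.62 and 0.57 in the mutants (1.65-fold, log2 0.72, SE 0.08, limma adjusted p = 0.000472). The other, at -0.21, -0.23, -0.36 and -0.30 against 0.56, 0.54, 0.52 and 0.47, rose 1.74-fold (log2 0.80, SE 0.05, limma adjusted p = 1.83e-05). Sh3bgrl2 fell by 0.37 (SE 0.07, limma adjusted p = 0.0117). Elovl4, an elongase of very long fatty acids, fell by 1.41 (SE 0.31, limma adjusted p = 0.0244), but its groups overlapped and it was well above background on 1 of 4 mutant arrays; its call was lost without mutant replicate 4 or WT smoke replicate 1 or 2. The clone transcript 2810410P21Rik, also named after its values were seen, was at -3.61, -3.49, -3.68 and -3.47 in the mutants and between -6.97 and -5.97 in WT smoke, where 2 of 4 arrays were well above background (log2 2.89, SE 0.22, limma adjusted p = 5.37e-05).

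Between 15 and 20 Mb, Cep162, a protein of centrioles and cilia, had 5 members, of which 3 passed, all lower. At chr9:87023551-87023610 it read -4.02, -3.95, -4.02 and -4.41 in WT smoke and -8.54, -8.72, -8.62 and -5.06 in the mutants, where only replicate 4 was well above background, so that the size of the fall is not measured (limma adjusted p = 0.0100). Another probe behaved alike, at -6.58, -6.73, -6.71 and -5.10 in the mutants, again with 1 of 4 arrays well above background (limma adjusted p = 0.000917). A further one fell by 0.86, and the remaining 2, the brightest, differed by -0.26 and -0.36 and did not pass (limma adjusted p = 0.116 and 0.0681). Tbx18, a T-box transcription factor, rose by 0.81 (SE 0.14, limma adjusted p = 0.00911), with 1 of 4 WT smoke arrays and all 4 mutant arrays well above background. Snhg5, a host gene of small nucleolar RNAs, fell by 0.33 (SE 0.07, limma adjusted p = 0.0229) to 1.49, 1.55, 1.34 and 1.61, while WT smoke at 1.74, 1.91, 1.80 and 1.86 lay above WT room air at 1.51, 1.48, 1.58 and 1.36. Its genotype call was lost without mutant replicate 1 or WT smoke replicate 2, 3 or 4. Bcl2a1b, an inhibitor of cell death, rose by 0.57 (SE 0.12, limma adjusted p = 0.0175); it has near-identical copies nearby, and the probe may read several of them.

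The proximal side had few named changes, spread over its length. Il18, a cytokine of macrophages and epithelium 18.8 Mb from Rora, read 0.17, 0.19, 0.20 and 0.07 in WT smoke and 0.64, 0.61, 0.45 and 0.63 in the mutants, with no overlap (log2 0.43, SE 0.06, limma adjusted p = 0.00428). Nkapd1 fell by 0.27 (SE 0.07, limma adjusted p = 0.0428). Lingo1, a membrane protein of neurons, was at -4.62, -4.66, -4.36 and -4.68 in WT smoke and -5.86, -6.33, -6.25 and -6.55 in the mutants, of which 1 array was well above background (log2 -1.67, SE 0.18, limma adjusted p = 0.000472; 0.38 and not passed with normexp). Lctl, of the klotho family, read -4.26, -4.90, -5.02 and -4.32 in the mutants and passed as higher (limma adjusted p = 0.0116), but only 1 of 4 WT smoke arrays was well above background, so the size of the rise is not measured. Rec114, which acts in meiotic recombination, rose by 0.96 (SE 0.24, limma adjusted p = 0.0423), Snx22, a sorting nexin, by 0.54 (SE 0.09, limma adjusted p = 0.00851) and Car12, a membrane carbonic anhydrase, by 0.75 (SE 0.17, limma adjusted p = 0.0263). Herc1, a giant ubiquitin ligase, was at -0.35 (SE 0.09, limma adjusted p = 0.0418), with groups that overlapped. Several of these calls were lost when 1 array was left out. Leaving out 1 array also moved the share of all tested probes that passed, from 5.80% to between 2.55% and 6.08%. That of Car12 was lost without mutant replicate 1 or 4 or WT smoke replicate 1 or 3. Those of Nkapd1, Rec114 and Herc1 were lost without mutant replicate 1 or 4 or WT smoke replicate 1 or 3, and further without mutant replicate 2 or WT smoke replicate 4 (Nkapd1), mutant replicate 3 or WT smoke replicate 2 or 4 (Rec114), and mutant replicate 2 or WT smoke replicate 2 (Herc1). With the slide as a block these 3 did not pass (limma adjusted p = 0.0669, 0.0825 and 0.0659).

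The probes of a gene did not always pass together. Of 141 names with 2 or more members, 110 had none that passed, 25 had some that passed and some that did not, 4 had all pass with the same sign (Bckdhb, Dppa5a, Myo5a and Tmod2, all distal), and 2 had probes that passed with opposite signs (Rfx7 and Lrrc1, both distal). On the distal side, 19 of 49 such genes were mixed and 24 had no call. On the proximal side, 6 of 92 were mixed and 86 had no call. The same counts over all genes of the arrays are not given here, so whether these are particular to the interval was not tested. From the first to the last probe, the members spanned 21.4 kb in Mapk6 and 62.0 kb in Cep162. In Lrrc1, a leucine-rich repeat protein, a probe rose by 0.25 (limma adjusted p = 0.0192) and another fell by 0.35 (limma adjusted p = 0.0481). Where in the transcripts these probes lie was not analysed here, since no mm8 gene models were used.

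**Figure D5:**
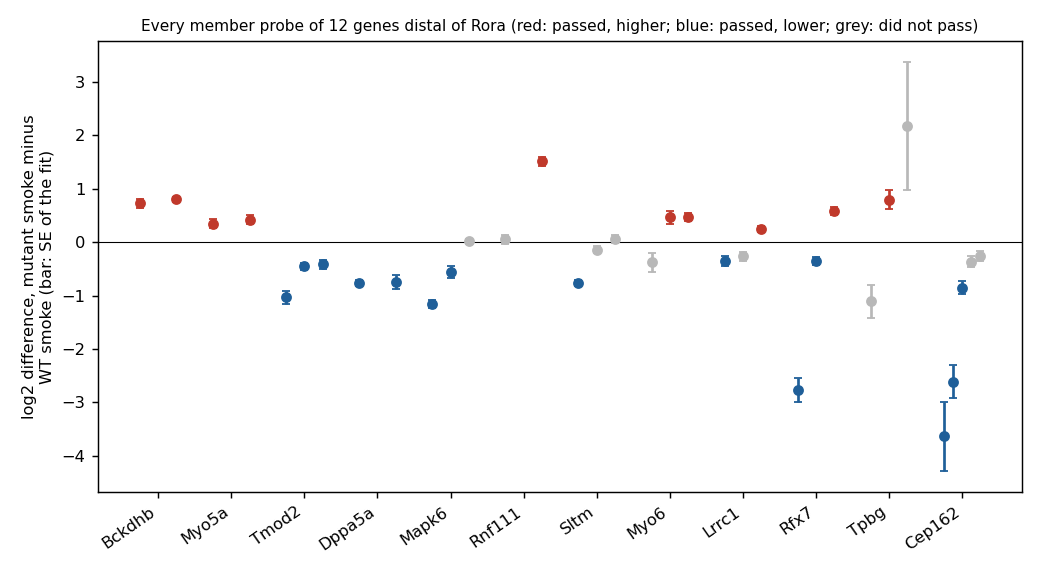
Change of every member probe of 12 genes distal of Rora, as log2 difference of mutant smoke minus WT smoke with the SE of the fit; red and blue probes passed and grey ones did not. Bckdhb, Myo5a, Tmod2 and Dppa5a have all probes coloured and of the same sign, while Rfx7 has a probe at 0.58 and others below 0; its lowest point is the fitted value of a probe with no mutant array above background.

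Grouped by role, with the brightest probe per gene, 31 of 269 named genes passed for genotype, 16 higher and 15 lower. Over the brightest probes of all 15129 such symbols on the arrays 5.86% passed, 2.93% higher and 2.93% lower. The counts per list below are small and are descriptions only. Of the 5 measured genes of TGF-beta and BMP signalling, Bmp5 rose, and Smad3 (0.19), Pias1 (0.05), Smad6 and Rnf111 did not pass. Of 5 unconventional myosins, Myo5a and Myo6 rose, and Myo9a was at 0.06. Of 6 actin and tropomyosin genes, Tmod2 and Tmod3 fell and Rdx was at 0.15. None of the 3 MAP kinase family genes passed on its brightest probe (Map2k1 at 0.12, Map2k5 at 0.05). Of 11 ubiquitin ligases and proteases, Herc1 fell and Trip4 was at -0.20 (limma adjusted p = 0.0637). Of 12 matrix and adhesion genes Cd109 rose, with Islr at 0.22 and Ncam1 at -0.28. Of 5 genes of oocyte and germline, all distal, Mns1 rose and Ooep and Dppa5a fell. Of 3 genes listed as pigment, coat or skeletal loci, Myo5a and Bmp5 rose and Rab27a was at -0.09.

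The metabolic, immune and remaining lists of the interval are described in the same way. Of 11 genes of central carbon metabolism and mitochondria, Bckdhb rose, Idh3a was at 0.17 and Pgm3 at 0.10. Of 7 genes of retinoid and lipid metabolism, Elovl4 fell, and Acat1 was at -0.29 (limma adjusted p = 0.0830) and Acsbg1 at -0.26. Of 8 immune genes Il18 rose and Pstpip1 was at -0.28. None of 5 small GTPases passed (Rab39 at 0.17, Rasl12 at 0.07), nor any of 5 cell cycle genes (Tipin at -0.21, Ccnb2 at 0.30, Npat at -0.17). At the nicotinic receptor locus, a place of human smoking associations, the measured genes were Psma4, Ireb2 and Hykk, and their changes of -0.07, 0.04 and -0.07 did not pass; in smoke against room air they were 0.02, -0.01 and -0.21, which did not pass either.

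Between the wild-type groups, which the labels do not separate by genotype, 23 members passed and lay on both sides of Rora. Signs of sex also differed between these groups, so exposure and sex cannot be told apart here. Nt5e, the ecto-enzyme that makes adenosine, read 1.88, 2.08, 1.90 and 1.77 in room air and 2.44, 2.44, 2.42 and 2.34 in smoke, a 1.42-fold rise (log2 0.50, SE 0.07, limma adjusted p = 0.00254), and the mutants at 2.41, 2.42, 2.58 and 2.59 overlapped WT smoke. Tmem202 rose by 0.48 (SE 0.08, limma adjusted p = 0.00421), Fdxacb1 by 0.33 (SE 0.06, limma adjusted p = 0.0148) and Snhg5 by 0.34 (SE 0.07, limma adjusted p = 0.0215). Igdcc4, a cell surface protein of the immunoglobulin superfamily, fell by 0.81 (SE 0.16, limma adjusted p = 0.0139) and Cilp, a matrix protein of cartilage, by 0.78 (SE 0.15, limma adjusted p = 0.0121). Ccdc33 fell by 0.43 (SE 0.09, limma adjusted p = 0.0286) and Fbxl22, an F-box protein, by 0.54 (SE 0.13, limma adjusted p = 0.0471). The calls of Ccdc33 and Fbxl22 were lost without any of WT room air replicates 1, 2 and 4 and WT smoke replicates 2, 3 and 4, and that of Fbxl22 also without WT smoke replicate 1. That of Snhg5 was lost without any of WT room air replicates 2 and 4 and WT smoke replicates 2 and 4. With the slide as a block Fbxl22 and Snhg5 did not pass for smoke (limma adjusted p = 0.101 and 0.0512). The count of 10 lower members fell to between 2 and 6 without any of 7 single arrays (WT room air replicates 2, 3 and 4 and WT smoke replicates 1 to 4 gave 4, 4, 2, 6, 5, 4 and 4).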

How the data were processed

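Whole lung RNA of 12 mice was measured on 12 single-colour Agilent arrays. The spot intensities were background-subtracted by Agilent Feature Extraction 9.5.3.1, per the file headers, and the authors' deposited value table holds log2 values of the same arrays, whose column medians are all 6.79. Its centring step is not given in the sources used here. Control and outlier spots were left out, replicate spots were averaged (43379 spots to 41174 probes), and probes well above background on at least 4 arrays were kept (30189). Processed signals were divided by the 75th percentile of the array and taken to log2. Contrasts of mutant smoke minus WT smoke and WT smoke minus WT room air were fitted to all 12 arrays with limma 3.58.1 in R 4.3.3, with Benjamini-Hochberg adjustment over all kept probes. The limma fit and its calls for genotype were tested on simulated data. Probe positions are on mm8, as the files give them, and names were updated by accession (384 members), symbol (84) or synonym (36) through RefSeq, with 74 left as in the file. Members and gene lists were chosen with earlier results of these data known.

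Named genes have a symbol that is no clone or accession name, with the brightest probe each: up to 14 largest rises and falls for genotype (14 and 12 existed) and 4 each for smoke among calls without overlap, the 6 nearest to Rora on each side, and up to 3 of each gene list by genotype p. Alternatives were quantile normalization, median scaling, normexp, other filters, 1 probe per gene, the authors' table, the slide or replicate number as a block, only the compared groups, a trended robust fit, and leaving out each array. Counts per side of Rora were added after the data were seen. The number of arrays limits the precision.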

Additional observations from a re-analysis of the deposited data

Results flagged for a closer look

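In 22 of 219 groups of 4 arrays examined for the named genes, 1 array stood apart from the other 3 by Dixon's criterion; chance gives about 1 in 20 groups. WT room air replicate 4 accounted for 6 of them. It was the lowest array for Nkapd1 (-1.36, the others from -1.23 to -1.20) and Tmem202 (-3.95, the others from -3.78 to -3.76). It was the highest for Rdx (2.44, the others up to 2.33), Acsbg1 (-3.04, the others up to -3.30), Rec114 (-1.37, the others up to -2.09) and Snx22 (-0.776, the others up to -1.05).

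WT smoke replicate 1 was lowest for Idh3a (1.502) and Pias1 (1.69) and highest for Filip1 (0.0237) and Bcl2a1b (2.23). WT smoke replicate 2 was lowest for Fbxl22 (-3.35) and highest for Rfx7 (-1.03) and for the brightest Mapk6 probe (-1.49). WT smoke replicate 3 was lowest for Ice2 (-1.36, the others at least -0.991). WT smoke replicate 4 was lowest for Herc1 (-3.72) and highest for Ooep (-2.19). WT room air replicate 1 was lowest for Bmp5 (-0.506, the others at least -0.305).

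Among the mutants, replicate 2 was the highest for Ooep (-4.37, the others up to -5.62), replicate 3 was lowest for Il18 (0.446, the others at least 0.614) and highest for Bnip2 (0.860, the others up to 0.748), and replicate 4 was lowest for Acsbg1 (-3.86, the others at least -3.31) and Ccnb2 (-0.569, the others at least -0.120). These deviations were not tested further.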

How the results depend on the processing

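Counts are members that passed, out of 34 higher, 44 lower, 62 distal and 16 proximal for genotype and 13 higher and 10 lower for smoke; the causes of shifts were not tested unless named. Normexp left 2 higher, 0 lower, 2 distal and 0 proximal for genotype and 0 and 0 for smoke by limma (56 members at an unadjusted p under 0.05 for genotype); it shifted the median of all kept probes by 0.15 for genotype and -0.11 for smoke. It also reversed Lingo1 (0.38), Herc1 (0.30) and Elovl4 (0.52) for genotype and Tmem202 (-0.053) for smoke. With 1 probe per gene, which tests fewer probes, 23 were lower and 37 distal. With only the compared groups 7 proximal and 5 lower for smoke passed, with no filter 7 and 4, and with a trended robust fit 31 proximal. With the slide as a block 9 proximal and 8 higher for smoke passed. Replicate numbers did not pair the mice (correlations of deviations from -0.08 to 0.20); with the replicate number as a block 30 higher, 47 lower, 58 distal and 19 proximal passed for genotype and 10 higher and 4 lower for smoke. Leaving out 1 array gave 24 to 36 higher, 26 to 49 lower, 46 to 60 distal and 6 to 26 proximal for genotype, and 8 to 11 higher and 2 to 9 lower for smoke. Of 29 named genotype calls, 18 passed in every alternative that tested them but normexp, and none of the 29 passed with normexp (26 kept their sign and 3 reversed). The Rora probe stayed between -2.22 and -1.93. Dim probes limit the precision: 534 of 578 members were above background on all 12 arrays.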

Other observations

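Outside the interval, chromosome 9 held further windows with many differences between mutant and WT smoke. At 30 to 35 Mb distal of Rora 12 of 71 probes (16.9%) passed, and at 25 to 30 Mb 8 of 70 (11.4%), while at 35 to 40 Mb 6 of 175 (3.43%) did. On the proximal side the window with the largest share, from 40 to 45 Mb, held 5 of 22 (22.7%). These windows were noticed after the values were seen and were not tested.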
